A study of Homo sapiens with 11 samples.

Results

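The genes described here carry NODAL signalling in undifferentiated cells: the ligands NODAL and GDF3, the co-receptor TDGF1, the antagonists LEFTY1 and LEFTY2, and the nuclear cofactor FOXH1. All probes annotated to these 6 genes were taken, of 18852 genes named on the array, which gave 7 of 48803 probes. TDGF1 stands in the probe annotation under its current symbol CRIPTO and was matched through its Entrez gene ID. A probe counts as above background on an array where its deposited detection p, which ranks it among negative control probes, is under 0.01, and 3 of the 7 probes, those of GDF3, LEFTY2 and FOXH1, reached this on at least 5 arrays and entered the tests.

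The study examined the effect of lasting knockdown of L1TD1, an RNA-binding protein of pluripotent cells, in NT2D1, a human embryonal carcinoma line. Every sample came from clones stably carrying a TetR3 repressor and an L1TD1 shRNA that doxycycline switches on, and total RNA was taken at day 6. There were 6 samples given doxycycline (dox+) and 5 not induced (dox-), one Illumina bead array each, prepared from 6 clones. Sample titles start with 1 (3 dox+ and 3 dox-) or with 5 (3 dox+ and 2 dox-), and the deposited table heads these samples shRNA1 and shRNA5, so the prefix is read as the shRNA. How these shRNAs differ is not given in the sources used here, and since same-numbered samples, taken below as clones, share a prefix, differences between prefixes and between clones cannot be told apart. Doxycycline was given to the induced cells alone, so the drug and the knockdown cannot be told apart, and the submitters had left out a sample that did not cluster with its group. Each culture is measured as bulk RNA, in which fewer cells of a type and less RNA per cell cannot be told apart.

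NODAL and GDF3 are secreted ligands of the TGF-beta family that act through activin receptors, with TDGF1 as the co-receptor at the cell surface. The receptors phosphorylate SMAD2 and SMAD3, which enter the nucleus with SMAD4 and reach many targets through FOXH1. LEFTY1 and LEFTY2 are secreted antagonists and themselves targets of the pathway, and in human pluripotent cells the pathway helps to keep NANOG expressed.

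The series-wide checks concern the cells, the arrays and the knockdown. Between 13301 and 15127 probes were above background per array, and log2 levels correlated between arrays at 0.974 to 0.992. All 7 embryonal carcinoma markers, POU5F1, SOX2, NANOG, LIN28A, DNMT3B, SALL4 and PODXL, were above background on every array, whereas 4 of 5 endoderm and 3 of 4 trophoblast markers were above it on none. Of the neuron markers 2 of 6 were above background on every array and the others on 8 to 10 arrays. Of the fibroblast markers 2 of 5 were above background on every array. L1TD1 itself stood at a log2 level of 8.04, 7.65, 7.34, 8.09, 8.33 and 7.57 in dox+ replicates 1 to 6 and at 8.55, 8.57, 8.86, 8.82 and 8.91 in dox- replicates 1 to 5. Its mean was 7.84 ± 0.37 in dox+ and 8.74 ± 0.17 in dox- samples (SD, n = 6 and 5), and all 6 dox+ samples lay below all 5 dox- samples, which held for 1.1% of all probes tested. With limma its log2 difference was -0.91 ± 0.18 (SE), with an adjusted p of 0.0753 over the 14338 probes tested. In prefix 1 alone the difference was -0.98 ± 0.23 (limma adjusted p = 0.0334). That call was lost in 7 of 20 other fits. Among these were the fit without the detection filter and those without dox- replicate 1 or 3 or dox+ replicate 1 or 3. In prefix 5 the L1TD1 difference was close to this, at -0.87 ± 0.25 (SE; limma adjusted p = 0.785). The L1TD1 effect in prefix 5 minus that in prefix 1 was 0.11 ± 0.34 (SE; limma adjusted p = 0.916).

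The promoters of the ligands GDF3 and NODAL are shown because one ligand was above background on every array and the other on none. Each sequence is the 250 bases before the gene's start in RefSeq (GRCh38.p14), read 5′ to 3′ along the gene, at chr12:7695776-7696025, minus strand, for GDF3 and chr10:70441682-70441931, minus strand, for NODAL. Capitals mark matches to motifs of the pathway and of pluripotency factors, searched on both strands.
GDF3: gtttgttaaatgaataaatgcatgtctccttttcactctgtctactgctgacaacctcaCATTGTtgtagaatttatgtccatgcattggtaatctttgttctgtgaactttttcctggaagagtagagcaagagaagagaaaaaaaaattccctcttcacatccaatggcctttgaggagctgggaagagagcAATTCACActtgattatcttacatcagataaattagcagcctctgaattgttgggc
NODAL: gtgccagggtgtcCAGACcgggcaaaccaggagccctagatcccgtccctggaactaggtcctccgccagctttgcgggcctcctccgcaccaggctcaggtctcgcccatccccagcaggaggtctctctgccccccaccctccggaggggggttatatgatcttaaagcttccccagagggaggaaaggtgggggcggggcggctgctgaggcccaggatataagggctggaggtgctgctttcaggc
The GDF3 window holds the FOXH1 motif TGTNNATT, on the opposite strand 56 bases before the start, and the SOX motif CATTGT 191 bases before it. The NODAL window holds the SMAD motif CAGAC 237 bases before the start. These are short motifs, and of all 35116 promoter windows of this length 9.88% hold the FOXH1 motif, 9.29% the SOX motif and 38.0% the SMAD motif. The octamer ATGCAAAT, found in 1.63% of windows, has no match in either, and the windows contain 38.4% G and C for GDF3 and 65.2% for NODAL. Of the 2 TDGF1 starts in the table, that at chr3:46577538-46577787 (plus strand) has a SOX match 138 bases before the start and that at chr3:46574285-46574534 (plus strand) has none of the 4 motifs.

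GDF3 was the only gene of the 6 above background on all 11 arrays, and its level differed among samples of one group more than between the groups. Levels are given as log2 intensity after background correction and quantile normalization, and levels of different probes are not on a common scale. In dox+ samples GDF3 stood at 10.32, 10.84, 10.80, 11.37, 10.87 and 11.89 in replicates 1 to 6. In dox- samples it stood at 10.76, 11.15, 11.69, 11.68 and 10.99 in replicates 1 to 5. The groups overlapped: dox+ replicate 1 alone lay below all dox- samples, and dox+ replicate 6 alone above them. The means were 11.02 ± 0.54 in dox+ and 11.26 ± 0.42 in dox- samples (SD, n = 6 and 5), a log2 difference of -0.24 ± 0.25 (SE, limma), or 0.846-fold with a 95% interval of 0.582 to 1.23 (adjusted p = 0.670). Single arrays moved the difference, to -0.10 without dox+ replicate 1 and to -0.42 without dox+ replicate 6.

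LEFTY2, an antagonist that binds NODAL and its co-receptor, was above background in 4 of 6 dox+ and 3 of 5 dox- samples, so some of its levels are bounds set by background. In dox+ samples it stood at 4.99, 5.97, 5.24, 7.55, 5.81 and 6.91 in replicates 1 to 6, those of replicates 1 and 3 not above background. In dox- samples it stood at 5.62, 6.11, 5.67, 6.77 and 5.47 in replicates 1 to 5, those of replicates 1 and 5 not above background. The highest levels, in replicates 4 and 6 of dox+ and 4 of dox-, all belong to prefix 5, and the groups overlapped. The means were 6.08 ± 0.98 in dox+ and 5.93 ± 0.53 in dox- samples (SD, n = 6 and 5), a log2 difference of 0.15 ± 0.40 (SE; 95% interval -0.69 to 0.99; limma adjusted p = 0.888). Without dox+ replicate 4 it was -0.14.

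FOXH1, the DNA-binding partner of the SMAD complex, was above background in 5 of 6 dox+ and 5 of 5 dox- samples. In dox+ samples it stood at 6.05, 6.05, 6.19, 6.20, 5.63 and 6.64 in replicates 1 to 6, that of replicate 5 not above background. In dox- samples it stood at 5.77, 5.98, 5.87, 6.10 and 6.40 in replicates 1 to 5. Both the lowest and the highest level were in dox+ samples of prefix 5, and the groups overlapped. The means were 6.13 ± 0.33 in dox+ and 6.02 ± 0.24 in dox- samples (SD, n = 6 and 5), a log2 difference of 0.10 ± 0.17 (SE; 95% interval -0.26 to 0.47; limma adjusted p = 0.809).

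**Figure D1:**
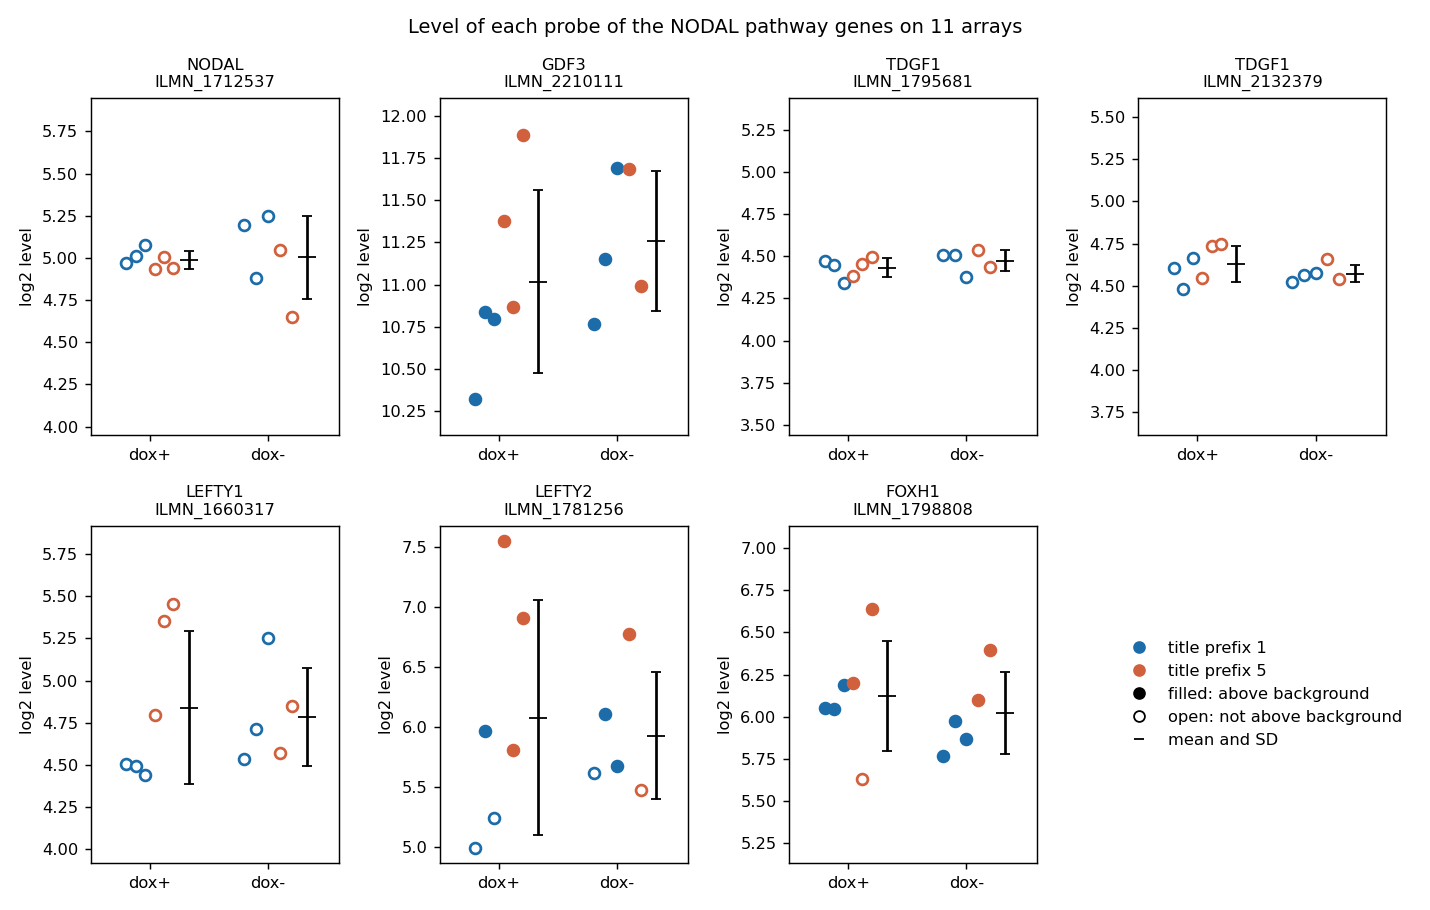
Log2 level of each of the 7 probes (vertical axis, own range per panel) in the 6 dox+ and 5 dox- samples, coloured by title prefix, with filled points above background, open points not, and bars for the mean and SD. GDF3 is filled throughout, LEFTY2 and FOXH1 in part, and the probes of NODAL, TDGF1 and LEFTY1 on no array.

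None of the 3 measured genes passed the test in the comparison of all samples, and 0 of 3 had an unadjusted p under 0.05 with limma. Over all probes tested 0.0418% passed an adjusted p of 0.05, and 16.2% had an unadjusted p under 0.05. The spread behind these values was unequal: the SD within groups was 0.81 for LEFTY2, larger than that of 99.5% of probes tested, 0.49 for GDF3, larger than that of 93%, and 0.29 for FOXH1, near the median of 0.28.

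The 4 remaining probes were above background on none of the 11 arrays, so no difference is given for them. NODAL, the ligand that names the pathway, had levels of 4.93 to 5.07 in dox+ and 4.65 to 5.25 in dox- samples, with detection p of 0.0527 to 0.083 in dox+ and 0.0198 to 0.298 in dox-. The first TDGF1 probe, ILMN_1795681, had levels of 4.34 to 4.49 in dox+ and 4.38 to 4.54 in dox- samples, and the second, ILMN_2132379, levels of 4.48 to 4.75 in dox+ and 4.52 to 4.66 in dox- samples. TDGF1 detection p was 0.173 or more in dox+ and 0.287 or more in dox- samples, while NODAL came nearer to the threshold in single arrays. TDGF1 has near-identical pseudogene copies, so what its probes bind is uncertain.

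LEFTY1, the close paralog of LEFTY2, stood at 4.51, 4.49, 4.44, 4.80, 5.35 and 5.45 in dox+ replicates 1 to 6. In dox- replicates 1 to 5 it stood at 4.54, 4.71, 5.25, 4.57 and 4.85. The arrays nearest to the detection threshold were dox+ replicates 5 and 6, with detection p of 0.0145 and 0.0224, and dox- replicate 3, with 0.0198. A probe not well above background is no evidence that the gene is silent. LEFTY1 and LEFTY2 are similar in sequence, and cross-binding between their probes was not tested.

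Within prefix 1, where the L1TD1 probe passed the test, the members again did not. GDF3 averaged 10.65 ± 0.29 in dox+ and 11.20 ± 0.47 in dox- samples (SD, n = 3 each), a log2 difference of -0.55 ± 0.30 (SE; 95% interval -1.19 to 0.09; limma adjusted p = 0.278), which became -0.31 without dox- replicate 3 and -0.77 without dox- replicate 1. For GDF3, scaling to a common median gave -0.83 (limma adjusted p = 0.098) and array weights gave -0.36 (0.350). With same-numbered samples as fixed blocks its difference stayed at -0.55, with a limma adjusted p of 0.0754. LEFTY2 averaged 5.40 ± 0.51 in dox+ and 5.80 ± 0.27 in dox- samples, above background in 1 of 3 dox+ and 2 of 3 dox-, with a difference of -0.40 ± 0.42 (adjusted p = 0.591). FOXH1 averaged 6.09 ± 0.08 in dox+ and 5.87 ± 0.10 in dox- samples, with a difference of 0.22 ± 0.22 (adjusted p = 0.567). All 3 dox+ samples of prefix 1 lay above all 3 dox- samples for FOXH1, as they did for 14.2% of all probes tested. Of the 3 members 0 passed in prefix 1 with limma, and 0 had an unadjusted p under 0.05, whereas 4.87% of probes passed and 24% had such a p.

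In prefix 5 the differences were 0.04 ± 0.33 for GDF3 (SE; 95% interval -0.68 to 0.76), 0.64 ± 0.47 for LEFTY2 (-0.38 to 1.65) and -0.09 ± 0.25 for FOXH1 (-0.63 to 0.44). GDF3 averaged 11.38 ± 0.51 in dox+ and 11.34 ± 0.49 in dox- samples (SD, n = 3 and 2), LEFTY2 6.76 ± 0.88 in dox+ and 6.12 ± 0.92 in dox-, and FOXH1 6.16 ± 0.51 in dox+ and 6.25 ± 0.21 in dox-. Their limma adjusted p were 0.994, 0.901 and 0.977. LEFTY2 was above background in 3 of 3 dox+ and 1 of 2 dox- samples of prefix 5. No member passed in prefix 5 with limma, and 0 had an unadjusted p under 0.05, where 0% of probes passed and 5.89% had such a p.

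The effect of doxycycline in prefix 5 minus that in prefix 1 was 0.59 ± 0.45 for GDF3, 1.04 ± 0.63 for LEFTY2 and -0.32 ± 0.33 for FOXH1 (SE), with limma adjusted p of 0.592, 0.514 and 0.706. For LEFTY2 the 95% interval ran from -0.32 to 2.39. Here 0 of 3 members passed and 0 had an unadjusted p under 0.05, against 0.0209% and 12.3% of probes.

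**Figure D2:**
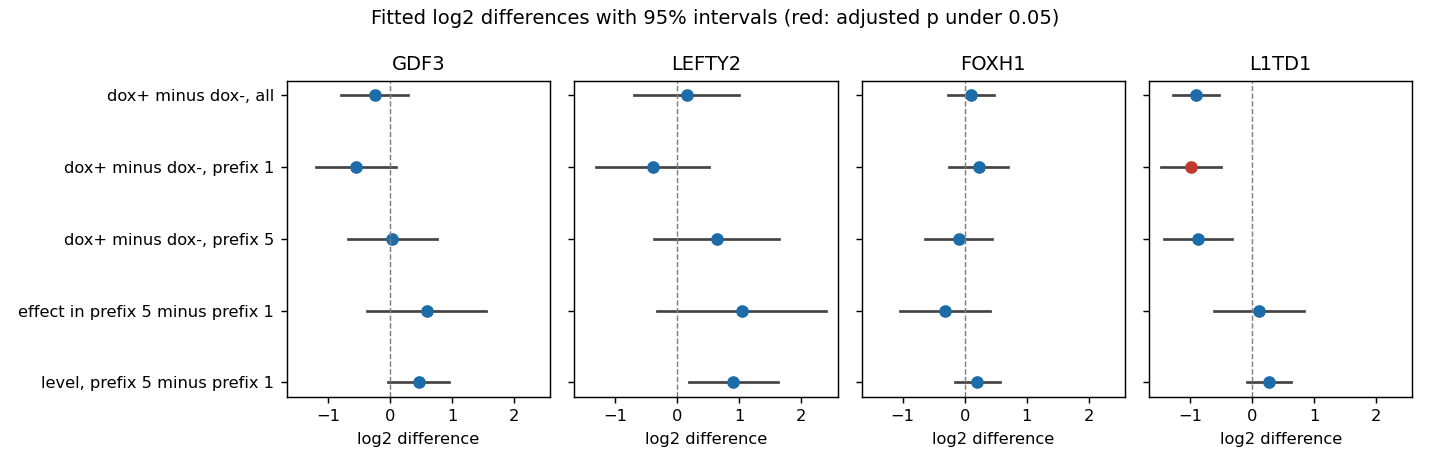
Fitted log2 differences (horizontal axis) with 95% intervals from limma for GDF3, LEFTY2, FOXH1 and L1TD1 in 5 comparisons, dox+ minus dox- or prefix 5 minus prefix 1. The intervals of the 3 members include 0 except that of LEFTY2 for the level in prefix 5 minus prefix 1 (0.18 to 1.62), and red marks an adjusted p under 0.05, reached by L1TD1 in prefix 1. The fit of prefix 5 minus prefix 1 counts samples of one clone as independent, so its intervals may be too narrow.

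Between title prefixes LEFTY2 had the largest difference of the 3 members, though not past the adjusted threshold. LEFTY2 averaged 6.50 ± 0.85 in prefix 5 and 5.60 ± 0.42 in prefix 1 samples (SD, n = 5 and 6), above background in 4 of 5 of prefix 5 and 3 of 6 of prefix 1. With the dox group in the fit the difference was 0.90 ± 0.33 (SE; 95% interval 0.18 to 1.62; limma unadjusted p = 0.0177, adjusted p = 0.327). This fit has no term for the clone, so the dox+ and dox- samples of one clone count as independent. The intervals and p-values between prefixes may therefore be too small. For LEFTY2, other settings of the processing gave 0.51 to 0.90, and leaving out each sample gave 0.64 to 1.23. GDF3 averaged 11.36 ± 0.44 in prefix 5 and 10.93 ± 0.46 in prefix 1 samples, with a difference of 0.46 ± 0.23 (adjusted p = 0.477). For FOXH1 the means were 6.19 ± 0.38 in prefix 5 and 5.98 ± 0.15 in prefix 1, with a difference of 0.20 ± 0.17 (adjusted p = 0.683). Thus 0 of 3 members passed between prefixes, where 0.0767% of probes did, and 1 had an unadjusted p under 0.05, as 11.4% of probes did.

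Set in order over the 4 combinations of treatment and prefix, GDF3 and LEFTY2 ran alike: highest in dox+ of prefix 5, then dox- of prefix 5, dox- of prefix 1 and dox+ of prefix 1. FOXH1 was highest in dox- of prefix 5, then dox+ of prefix 5, dox+ of prefix 1 and dox- of prefix 1. Neighbours in these orders differed by less than the larger of their SDs, except for the last step of GDF3 and of FOXH1, which are the prefix 1 differences given above.

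The design text gives each clone a dox+ and a dox- sample, and same-numbered replicates, of which there are 5 pairs, were taken as one clone. No label states this pairing, and over all probes tested the deviations of same-numbered samples from their group means correlated over 0.1 in 1 of 5 pairs. GDF3 was lower in the dox+ sample of all 5 pairs, by log2 differences of -0.44, -0.31, -0.90, -0.31 and -0.12 in pairs 1 to 5, with a mean of -0.42 ± 0.29 (SD, n = 5). Of all probes tested 6.95% were lower in all 5 pairs. With the replicate number as a block, which drops the unpaired dox+ replicate 6, GDF3 had a log2 difference of -0.42 ± 0.15 (SE; 95% interval -0.75 to -0.09; limma unadjusted p = 0.0192, adjusted p = 0.303). Leaving out dox+ replicate 6 without a block gave the same difference of -0.42, with an adjusted p of 0.412. In the blocked fit 0% of probes passed, and 2004 of 14338 had an unadjusted p under 0.05.

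LEFTY2 differed between dox+ and dox- by -0.62, -0.14 and -0.43 in the 3 pairs of prefix 1 and by 0.78 and 0.34 in both pairs of prefix 5. Both LEFTY2 levels of pair 1, the dox+ level of pair 3 and the dox- level of pair 5 were not above background, so 3 of these 5 values are set in part by background. FOXH1 differed by 0.28, 0.07, 0.32, 0.10 and -0.77 in pairs 1 to 5, higher in dox+ in 4 of 5 pairs, with pair 5, whose dox+ sample was not above background, the other way. Blocked differences were -0.02 ± 0.21 for LEFTY2 and 0.00 ± 0.18 for FOXH1 (SE).

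**Figure D3:**
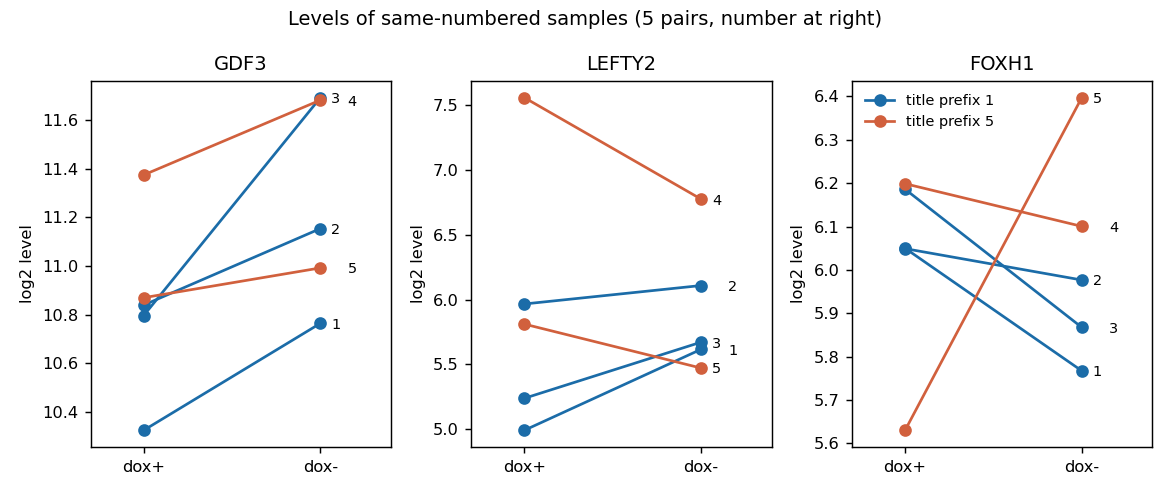
Log2 level (vertical axis) of GDF3, LEFTY2 and FOXH1 in the 5 pairs of same-numbered dox+ and dox- samples, a line per pair, numbered at the right and coloured by title prefix. GDF3 is lower in dox+ in all 5 pairs, and LEFTY2, with a level not above background in 3 of the 5 pairs, lower in the 3 pairs of prefix 1 and higher in both of prefix 5.

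Across the 11 arrays GDF3 and LEFTY2 varied together. Their levels had a Pearson r of 0.71 (permutation p = 0.0170, adjusted over the 3 pairs of members 0.0511) and a Spearman rho of 0.73 (p = 0.0154, adjusted 0.0463). Without the 2 samples farthest from the GDF3 median, dox+ replicate 6 and dox- replicate 3, r was 0.84, and among the 6 samples of prefix 1 it was 0.56. As deviations from the means of the 4 combinations of treatment and prefix it was 0.60, and the 5 samples of prefix 5 are too few for an r of their own. The permutations shuffle all 11 samples freely, but these come from 6 clones and differ in prefix, so the p-values may be too small. LEFTY2 was not above background on 4 of the arrays. Genes outside the pathway reached an r of 0.94 with GDF3 (MPDU1) and 0.87 with LEFTY2 (BABAM2) on the same arrays. A particular link between the 2 members was not tested. FOXH1 had an r of 0.39 with GDF3 (permutation p = 0.239, adjusted 0.302; rho 0.34, p = 0.309, adjusted 0.464) and of 0.35 with LEFTY2 (p = 0.302, adjusted 0.302; rho 0.22, p = 0.520, adjusted 0.520). Without the 2 samples farthest from the GDF3 median the r of FOXH1 with GDF3 was 0.23. Without dox+ replicates 4 and 6, the 2 samples farthest from the LEFTY2 median, its r with LEFTY2 was -0.13. Within prefix 1 the r of FOXH1 was -0.37 with GDF3 and -0.33 with LEFTY2, and as deviations from the 4 means it was 0.52 and 0.33.

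**Figure D4:**
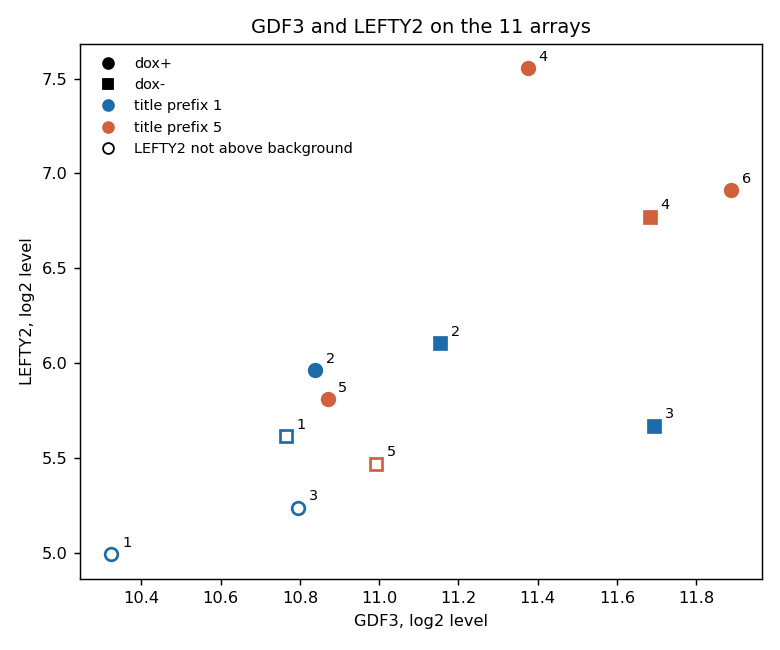
Log2 level of LEFTY2 (vertical axis) against that of GDF3 (horizontal axis) on the 11 arrays, with circles for dox+, squares for dox-, colours for title prefix, replicate numbers beside the points and open symbols where LEFTY2 was not above background. The 3 arrays with the highest LEFTY2, all of prefix 5, also lie at the upper end for GDF3.

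The genes whose levels ran most like each member were found by Pearson r over the 11 arrays among 9853 other genes, a description of these arrays with no test. For GDF3 they were MPDU1, needed for the use of dolichol-linked mannose (r = 0.94), the glycolytic kinase PGK1 (0.91) and the tight junction protein CLDN6 (0.90). For LEFTY2 they were BABAM2 (0.87), PIGT, a subunit of the enzyme that attaches GPI anchors (0.86), and DRC11 (0.85). For FOXH1 they were the lysosomal membrane protein CLN3 (0.94), the epoxide hydrolase EPHX3 (0.93) and the mRNA cap scavenger DCPS (0.93).

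Beyond the 6 members, 39 other genes of the pathway were listed by role, of which 20 had a probe above background on at least 5 arrays. Of these 20, 10 had a higher and 10 a lower level in dox+ than in dox- samples, with a median log2 difference of 0.00, against 0.01 over all 9854 genes tested. None passed with limma, and 3, SMAD2, CXCR4 and FST, had an unadjusted p under 0.05, which is 15% of the 20 against 16.1% of all genes. These counts use the brightest probe of each gene and depend on that choice. Of 6 genes with more than 1 kept probe, 2 had all probes in one direction. PPM1A had 0.11 by its brightest probe but -0.39 and -0.17 by others, and TRIM33 0.04 but -0.19. The probes of TGIF1 and OTX2 are given below.

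Among ligands and processing enzymes 1 of 5 genes was measured, the convertase FURIN that cleaves ligand precursors, at 7.43 ± 0.45 in dox+ and 7.04 ± 0.59 in dox- samples (SD, n = 6 and 5; log2 difference 0.38 ± 0.26 SE; limma adjusted p = 0.488). FURIN was lower in dox+ in 3 of 5 pairs, and the difference was 0.14 without dox- replicate 1 and 0.21 without dox+ replicate 6. GDF1, INHBA, INHBB and PCSK6 were above background on no array. Of 5 receptors and co-receptors 3 were measured. The type II receptors ACVR2A and ACVR2B had differences of -0.21 ± 0.14 and -0.30 ± 0.20, and the type I receptor ACVR1B one of 0.08 ± 0.12, with adjusted p of 0.456, 0.479 and 0.771. The direction of ACVR1B turned with scaling to a common median, at -0.06.

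Of 10 intracellular effectors and nuclear partners 9 were measured, and SMAD2, which carries the signal to the nucleus, had the smallest p of all 20 genes. Only 1 of the 3 SMAD2 probes entered the tests, so its values rest on that probe. SMAD2 stood at 5.83, 6.08, 5.94, 6.11, 6.12 and 5.68 in dox+ replicates 1 to 6, that of replicate 6 not above background. In dox- replicates 1 to 5 it stood at 6.18, 6.37, 6.60, 6.44 and 6.35. All 6 dox+ samples lay below all 5 dox- samples, as they did for 1.1% of all probes tested. The log2 difference was -0.43 ± 0.13 (SE; 95% interval -0.71 to -0.15), or 0.742-fold, with a limma adjusted p of 0.145 (0.00468 unadjusted), so SMAD2 did not pass. Without background correction, and likewise with the authors' normalized values, it was -0.24. Its partners SMAD3, at 0.05 ± 0.12, and SMAD4, at -0.21 ± 0.18, had adjusted p of 0.881 and 0.594. The corepressor TGIF1 had a difference of 0.29 ± 0.21 by its brightest probe, with other probes at 0.26, -0.15 and -0.34, and therefore no single direction. The corepressor SKIL was above background on no array.

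Of 8 inhibitors and feedback genes 5 were measured, while CER1, DAND5 and SMURF2 were above background on no array. FST, the secreted activin antagonist follistatin, averaged 10.08 ± 0.62 in dox+ and 10.71 ± 0.39 in dox- samples (SD, n = 6 and 5), a log2 difference of -0.63 ± 0.27 (SE; limma unadjusted p = 0.0335, adjusted p = 0.263), and a second probe gave -0.82. FST was lower in dox+ in 5 of 5 pairs, as were 6.95% of all probes tested. Without dox+ replicate 6, which stood lowest at 8.92, the difference of FST was -0.40. PMEPA1, a feedback inhibitor induced by TGF-beta signals, had a difference of -0.39 ± 0.19 (adjusted p = 0.322), with a second probe at -0.38. The pseudoreceptor BAMBI had one of 0.25 ± 0.18 (adjusted p = 0.524).

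Of 11 mesendoderm targets 2 were measured, whereas EOMES, GSC, MIXL1, TBXT, SOX17 and GATA6 were above background on no array. CXCR4, a chemokine receptor of early endoderm, was above background in 1 of 6 dox+ and 4 of 5 dox- samples, with a log2 difference of -0.59 ± 0.24 (SE; limma unadjusted p = 0.0281, adjusted p = 0.247). With 5 of 6 dox+ levels not above background this value depends on the background correction, and without it, as with the authors' normalized values, it was -0.30. Only 1 of the 3 CXCR4 probes entered the tests. OTX2, a homeobox factor of the anterior neuroectoderm and epiblast, averaged 9.40 ± 1.02 in dox+ and 10.10 ± 0.45 in dox- samples (SD, n = 6 and 5), a difference of -0.70 ± 0.40 (adjusted p = 0.403). It stood lowest in dox+ replicate 6, at 7.63, and without that sample the difference was -0.34; other probes of OTX2 gave -0.63 and 0.07.

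**Figure D5:**
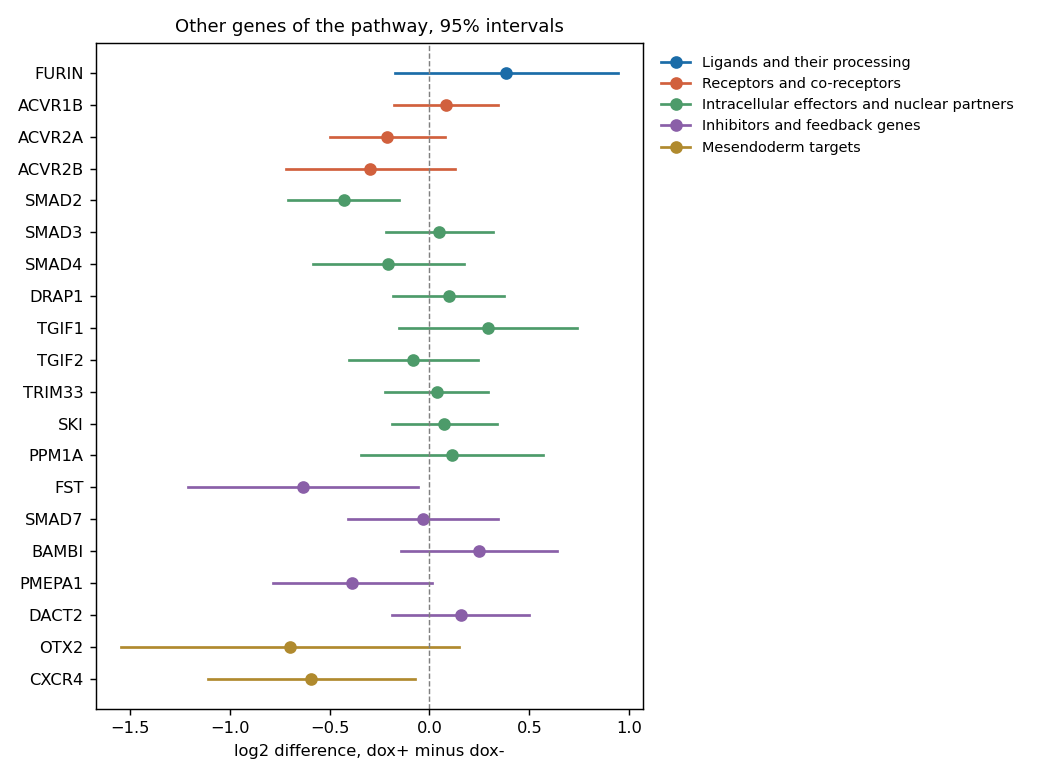
Fitted log2 difference (horizontal axis), dox+ minus dox-, with 95% intervals from limma for the 20 measured pathway genes outside the 6 members, by their brightest probe and coloured by role. SMAD2, FST and CXCR4 have intervals below 0 before adjustment, and 10 of the 20 genes lie on each side of 0.

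Within the prefixes, in the difference of effects and between prefixes 0 of the 20 genes passed the adjusted threshold of limma. An unadjusted p under 0.05 was found for 2 in prefix 1, SMAD2 (-0.44 ± 0.18) and PMEPA1 (-0.63 ± 0.24), for 0 in prefix 5, for 0 in the difference of effects and for 4 between prefixes. Those 4 were ACVR2B (-0.43), FST (-0.54) and CXCR4 (-0.49), lower in prefix 5, and the inhibitory SMAD7 (0.38), higher in prefix 5. Of all 9854 genes 24.1%, 5.02%, 12.2% and 11.3% had such a p in these comparisons. The fit between prefixes counts samples of one clone as independent, so its p-values may be too small.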

How the data were processed

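Total RNA of 11 NT2D1 samples was hybridised to Illumina bead arrays. One deposited table gives the linear intensity of 48803 probes before any normalization or background subtraction, with a detection p-value beside each, which the authors deposited in steps of 1 over 759. A second deposited matrix holds intensity after quantile normalization by the authors: its sorted values lie within 0.0549% of the mean of the sorted raw columns. Per the submitters' processing notes limma was used, with no version given. Mean raw intensity per array was 348 to 423 in dox+ and 395 to 461 in dox- samples. The number of arrays limits the precision.

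The neqc function (limma 3.58.1, R 4.3.3, with statmod 1.5.0) was applied to the raw intensities. It corrects for background, inferred here from detection p-values, then uses an offset of 16, log2 and quantile normalization. The tests used the 14338 probes whose detection p was below 0.01 on 5 or more arrays. Gene symbols came from the platform annotation, updated through Entrez ID to RefSeq: 28098 probes had 1 symbol, 13 several and 20692 were unnamed. A gene of a list was represented by its kept probe with the highest mean, over 9854 genes, and of the pathway genes 6 had more than 1 kept probe, 2 of them with all probes in one direction.

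limma (lmFit, eBayes; two-sided; Benjamini-Hochberg over all kept probes, threshold 0.05) compared dox+ with dox- over all samples, within each title prefix and between prefixes. It was checked on simulated data with independent samples and effects larger than the differences of the members. That check does not cover smaller effects or samples that share a clone. Correlations used 1e+05 permutations.

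The numbers were taken as clones because the design text gives each clone both conditions and title numbers differ by 9 in the 3 pairs of prefix 1 and by 11 in the 2 pairs of prefix 5; no label states it. Deviations of same-numbered samples from their group means correlated from -0.19 to 0.40, over 0.1 in 1 of 5 pairs. The dox+ sample most like a dox- sample by these deviations was the same-numbered one in 1 of 5 pairs. With the numbers as clones, the spread within a group is that between clones. As no label gives the clone or says that the replicates are separate cultures, p-values may instead measure technical spread.

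The members, lists and tests were chosen with earlier results of these data known. Besides the members and L1TD1, the text names, per list, the 3 genes of smallest p, and the 3 genes most like each member; other genes were chosen after their values were seen. Promoters of LEFTY1, LEFTY2 and FOXH1 were not used here.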

Additional observations from a re-analysis of the deposited data

Results flagged for a closer look

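FURIN in dox+ replicate 6 stood apart from the other samples of its group: its log2 level was 8.29, the next highest dox+ sample had 7.50 and the lowest 7.11. The gap was 0.67 of the whole range of the group, above the 95% critical value of Dixon's test for 6 samples. Of 40 groups examined this was the only one, and chance alone flags about 1 in 20.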

How the results depend on the processing

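No comparison called GDF3, LEFTY2 or FOXH1 under any setting tried, and in the comparison of all samples their adjusted p ranged from 0.303 to 0.889, 0.683 to 0.994 and 0.495 to 0.998. The numbers of probes called over the whole array moved more, and the cause was not tested. For dox+ against dox- over all samples 6 probes passed; this became 17 with the authors' normalized values, 17 without background correction, 1 without the detection filter, 13 with probes above background on all arrays, 31 with array weights, 0 with the replicate block as a fixed term and 21 as a random term, and 0 to 26 when leaving out each sample (0 without dox+ replicate 1, 3 or 6 or dox- replicate 1, 3 or 4, 1 without dox- 5, 16 to 26 without dox+ 2, 4 or 5). For prefix 1 the 698 became 292 without the filter, 2674 with weights, 1356 with the fixed and 1510 with the random replicate block, and 1 to 1138 when leaving out each sample (1 to 3 without dox- 1, dox+ 1 or dox+ 3, 41 without dox- 3, 314 without dox- 4 or 5, 463 without dox+ 4, 1052 without dox+ 2 and 1138 without dox+ 6). For prefix 5 the 0 became 0 to 1 when leaving out each sample (1 without dox+ 5). For the difference of effects the 3 became 0 with the authors' values, 0 without background correction, 1 with median scaling, 1 without the filter, 0 with probes above background on all arrays, 166 with weights, 0 with the fixed block and 0 to 4 when leaving out each sample (0 without dox- 4 or 5). Between prefixes the 11 became 0 with probes above background on all arrays, 110 with weights and 4 to 20 when leaving out each sample (20 without dox- 3, 4 without dox- 1 or dox+ 4). L1TD1 in prefix 1 had adjusted p of 0.0108 to 0.127 and lost its call in 7 of 20 settings, and over all samples it gained one in 4 of 20.

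The sign turned for ACVR1B with median scaling (-0.0587), for LEFTY2 over all samples with the fixed replicate block (-0.0156) and when leaving out samples (-0.14 to 0.37; below 0 without dox+ 4 or 6), and for GDF3 in prefix 5 with the fixed block (-0.22), the random block (-0.00119) and when leaving out samples (-0.30 to 0.39; below 0 without dox- 5 or dox+ 6). Leaving out samples also turned the prefix 5 values of LEFTY2 (-0.0142 to 1.29; below 0 without dox- 5) and FOXH1 (-0.33 to 0.17; above 0 without dox- 5 or dox+ 5) and the difference of effects for L1TD1 (-0.0552 to 0.32; below 0 without dox+ 3 or 5). Over all settings the difference ranged from 0.14 to 0.51 for FURIN, -0.44 to -0.16 for ACVR2B, -0.37 to -0.09 for SMAD4 and 0.05 to 0.32 for BAMBI. The blocked fit changed no call of a member. Leaving out a dox- sample of prefix 5 leaves 1 there, assumed to vary like the other groups. LEFTY2, FOXH1, SMAD2, ACVR2B and CXCR4 have no value with probes above background on all arrays, and low signal over background limits these genes.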
